A study of Oryza sativa with 12 samples.

Results

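Calcineurin B-like proteins (CBLs) and the CBL-interacting protein kinases (CIPKs) form a family of calcium sensors and kinases in plants, followed here in panicles of 2 rice (Oryza sativa) cultivars. Members were chosen by name alone, as CBL1 to CBL10 and CIPK1 to CIPK33 among the symbols and synonyms of the gene table of assembly ASM3414082v1. The array's own annotation held none of these names. Of the 43 names, 39 had a gene in the table, and 31 of those genes had a probe set on the array, 7 CBL genes and 24 CIPK genes. All 31 were tested, among 16069 genes in all. No gene stood under CBL8, CIPK4, CIPK22 or CIPK28, and no probe set was paired with CBL1, CBL7, CIPK3, CIPK9, CIPK13, CIPK15, CIPK27 or CIPK33. The gene called CBL5 here also carries the synonym CBL2, the one called CIPK18 carries CIPK22, and the one called CIPK31 carries CIPK3.

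CBLs are small EF-hand proteins without enzyme activity. When calcium rises, a CBL binds the regulatory tail of a CIPK, which frees the kinase, and the lipid anchor of the CBL takes the pair to the plasma membrane or the vacuole. CIPKs are also named SnRK3 kinases, and the pairs are best known for controlling potassium, sodium and nitrogen transport and for responses to salt, drought and cold.

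The 12 arrays fall into 4 groups of 3, all of panicles from main tillers: N22 heat, N22 control, IR64 heat and IR64 control. Nagina 22 (N22) is called heat-tolerant and IR64 susceptible in the labels. Heat plants stood in a temperature-controlled facility held 5 °C over ambient, nights included, for 8 days beginning at booting or flowering, while control plants grew outdoors in the field next to it. Heat and growing site changed together, so their effects cannot be told apart. The sources used here do not give the number of plants per sample, and the p-values measure only the spread between these samples, which may be technical.

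Values are log2 probe set signals, and a level is never compared between genes, since probe sets differ in their response. A gene with several probe sets is represented by the brightest. Background was taken as 4.20, the highest value of 64 reporter probe sets that match no rice gene, and between 33.2% and 34.4% of probe sets lay above it on each array. A change is a log2 difference between group means, given with its standard error (SE) in the limma fit over all 12 arrays, and a gene is called where its Benjamini-Hochberg adjusted p, over all 29801 tested probe sets, is under 0.05. When every array of a group was at background, a fold is given as a lower limit. Of the 31 genes, 21 lay above background on all 12 arrays. CBL4, CIPK16 and CIPK20 lay at background on all of them, and 7 lay above it on some arrays (CBL5, CBL9, CIPK5, CIPK12, CIPK17, CIPK29 and CIPK30).

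The panicles of the cultivars differed in their marker genes, which bears on every comparison between them. The summed level of 5 endosperm storage genes, on a log2 scale, was 17.12 to 17.19 in N22 heat, 17.04 to 17.06 in N22 control, 5.07 to 6.67 in IR64 heat and 6.22 to 8.53 in IR64 control. The glutelin genes GLUA1, GLUA2, GLUA3 and GLUC lay at background on all IR64 arrays. For 15 floral organ MADS genes the sum was 12.4 to 12.6, 11.3 to 11.4, 14.1 to 14.2 and 14.4 to 14.5 in the same order of groups, and for 6 green tissue genes it was 15.7 to 15.8, 13.7 to 13.8, 16.3 to 16.4 and 16.3 in IR64 control. For 7 anther wall genes the sum was 11.3 to 11.5, 10.86 to 10.96, 12.4 to 12.5 and 12.4 to 12.6, with TIP2, CYP703A3 and PTC1 at background in every group. EAT1 lay at background in both IR64 groups. Such a sum mostly follows its brightest genes. Gene by gene, genes at background included, 4 were called higher and 1 lower in N22 control (39.3% and 42.1% of all genes). The counts were the same in heat (34% and 40.4% of all genes). The difference between 3' and 5' control probe sets of GAPDH, a measure of RNA integrity, averaged 8.81 ± 0.17 in N22 heat, 8.59 ± 0.14 in N22 control, 7.93 ± 0.16 in IR64 heat and 4.79 ± 0.18 in IR64 control (SD, n = 3). The same difference for ubiquitin averaged 2.04 ± 0.055 in N22 heat, 2.21 ± 0.070 in N22 control, 2.15 ± 0.014 in IR64 heat and 1.45 ± 0.029 in IR64 control. The part of tissue makeup and RNA integrity in the results that follow was not tested. In whole panicles, fewer cells of a type and less RNA per cell cannot be told apart.

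Among the CBL and CIPK genes, lower calls outnumbered higher calls in heat in both cultivars. The share of lower calls was close to that of all genes in N22 and larger than it in IR64. In N22, 18 of the 31 were called (58.1%, against 63.1% of all genes). Of these, 11 were lower in heat (35.5%, against 33.5% of all genes) and 7 higher (22.6%, against 29.6%). In IR64, 23 were called (74.2%, against 63.1% of all genes), 16 lower (51.6%, against 33.5%) and 7 higher (22.6%, against 29.6%). The median change of the 31 was 0.11 in N22, beside -0.015 over all genes, and -0.35 in IR64, beside -0.0041 over all genes. With a fold of at least 2 added, 8 members were called in N22 (19.7% of all genes), 4 in each direction, and 10 in IR64 (20.1% of all genes), all lower. Heat and control did not overlap for 21 members in N22 (69.9% of all genes) and for 26 in IR64 (68.8% of all genes). Not called in N22 were CBL9, CBL10, CIPK2, CIPK6, CIPK8, CIPK16, CIPK17, CIPK19, CIPK20, CIPK25, CIPK26, CIPK30 and CIPK31, and not called in IR64 were CBL4, CBL5, CIPK8, CIPK12, CIPK16, CIPK17, CIPK19 and CIPK25.

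Of 7 CBL sensors, 1 was called higher and 4 lower in N22 heat (14.3% and 57.1%). In IR64 heat 3 were called higher and 2 lower (42.9% and 28.6%). Over all genes 29.6% were higher and 33.5% lower in each cultivar. In N22, CBL5 was called higher and CBL2, CBL3, CBL4 and CBL6 lower, and in IR64 CBL2, CBL3 and CBL10 were called higher and CBL6 and CBL9 lower. CBL4, known as SOS3 for its part in salt tolerance, lay at background in both N22 groups (2.72 to 2.79 in heat, 2.97 to 3.69 in control), and its call was lost when 8 of the 12 arrays were left out singly.

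**Figure D1:**
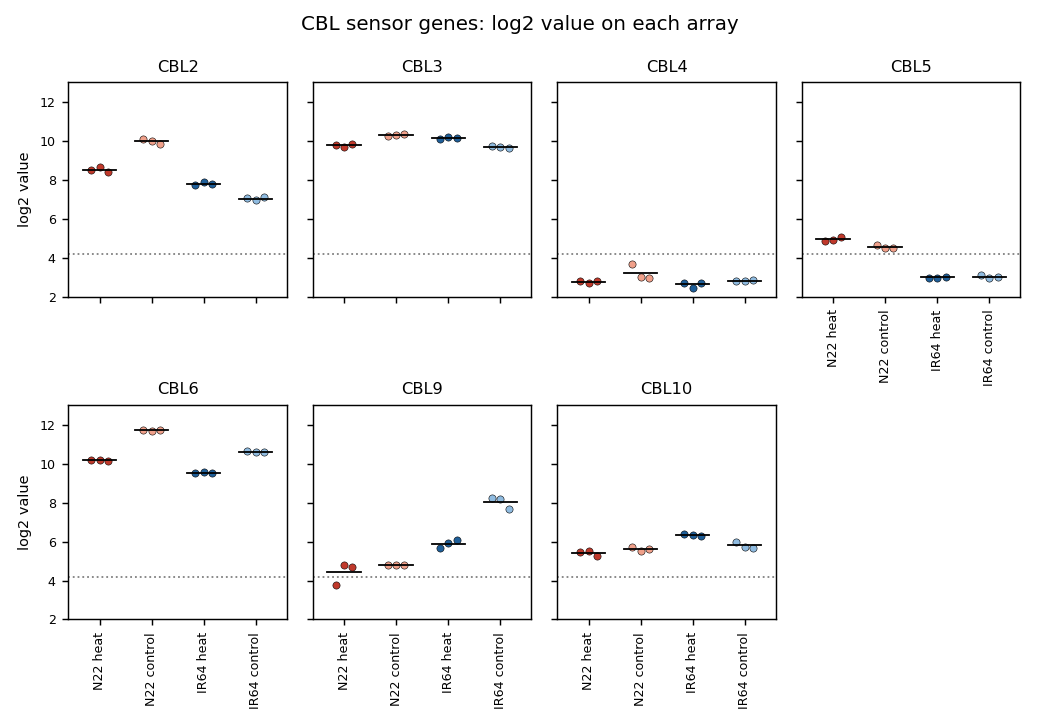
Log2 value of each CBL gene on each array, by group from left to right N22 heat, N22 control, IR64 heat and IR64 control. Points are arrays (3 per group), black bars are group means and the dotted line is the background level of 4.20. CBL2 and CBL3 lie lower in heat than control in N22 and higher in heat than control in IR64.

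CBL2 (LOC4352701), a sensor of the vacuole membrane that in rice has been studied in the aleurone of the grain, moved in opposite directions. It measured 8.48, 8.67 and 8.39 in N22 heat, against 10.11, 10.01 and 9.81 in N22 control. In IR64 it measured 7.71, 7.91 and 7.76 in heat, against 7.04, 6.94 and 7.11 in control. No groups overlapped, and the N22 arrays were the highest in both conditions. Heat changed CBL2 by -1.47 ± 0.10 in N22 (adjusted p = 6.71e-07) and by 0.77 ± 0.10 in IR64 (adjusted p = 7.22e-05). The heat effects differed by -2.23 ± 0.14, the most negative difference among the 31 members.

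CBL3 (LOC4333502), the close relative of CBL2 and also a vacuolar sensor, followed the same signs with smaller sizes. It measured 9.77, 9.70 and 9.86 in N22 heat, against 10.24, 10.31 and 10.33 in N22 control, a change of -0.51 ± 0.05. The IR64 arrays gave 10.09, 10.18 and 10.15 in heat, against 9.72, 9.68 and 9.62 in control, a change of 0.47 ± 0.05. The heat effects differed by -0.98 ± 0.08 (adjusted p = 2.18e-06).

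CBL6 (LOC4351575) was lower in heat in both cultivars and was one of the members with a bright signal on every array. It measured 10.20, 10.17 and 10.16 in N22 heat, against 11.74, 11.66 and 11.70 in N22 control. Its IR64 values were 9.51, 9.55 and 9.54 in heat, against 10.65, 10.58 and 10.60 in control. Its replicate spread was small, and the fall was -1.53 ± 0.04 in N22 and -1.08 ± 0.04 in IR64.

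CBL9 (LOC9269084) was higher in IR64 control than in any other group. In N22 it measured 3.77, 4.77 and 4.71 in heat, against 4.77 on every control array, so that these groups overlapped. The 4.77 of N22 heat replicate 2 and of all N22 control arrays was 1 identical value (SD 0 in control). In IR64 CBL9 measured 5.65, 5.94 and 6.10 in heat, against 8.22, 8.19 and 7.68 in control. The change was not called in N22 (-0.36 ± 0.25, adjusted p = 0.286) and was -2.14 ± 0.25 in IR64 (adjusted p = 4.36e-05). Neither of its probe sets was called in N22 and both fell in IR64, but both carry a suffix that marks probes able to match several transcripts. The second lay at background on 2 N22 heat arrays and 1 N22 control array. The size of CBL9 differences that involve N22 is therefore uncertain. CBL10, a sensor named for salt tolerance in Arabidopsis shoots, was not called in N22 (-0.21 ± 0.10, adjusted p = 0.102) and was higher in IR64 heat by 0.55 ± 0.10. CBL5 (LOC4325962) was called higher in N22 heat by 0.41 ± 0.07, while both IR64 groups lay at background. With each array centred on its median this rise was 0.21, and the difference of its heat effects was no longer called (0.14, adjusted p = 0.258).

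Between cultivars in the open field, CBL2 differed by 2.95 ± 0.10, higher in N22, and CBL9 by -3.26 ± 0.25, lower in N22, where its control values were tied. CBL6 was 1.09 ± 0.04 higher and CBL3 0.62 ± 0.05 higher in N22 control. CBL5, at 4.65, 4.49 and 4.49 in N22 control against background in IR64 control, was at least 1.27-fold higher. Under heat, CBL5 measured 4.86, 4.93 and 5.07 in N22, against 2.96, 2.98 and 3.02 in IR64, at least 1.68-fold higher in N22. Beside these differences, the endosperm storage gene GLUA1 was at least 936-fold higher in N22 control, and the part of endosperm in them was not tested.

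The CIPK kinases were 24 of the 31 tested members and held 14 of the 16 called falls in IR64 heat. Of the 24, 13 were called in N22 heat, 7 lower and 6 higher (29.2% and 25%). In IR64 heat 18 were called, 14 lower and 4 higher (58.3% and 16.7%). Over all genes 33.5% were lower and 29.6% higher in each cultivar. CIPK7 and CIPK10 were higher in heat in both cultivars, and CIPK1, CIPK11, CIPK18, CIPK21 and CIPK32 were lower in both.

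**Figure D2:**
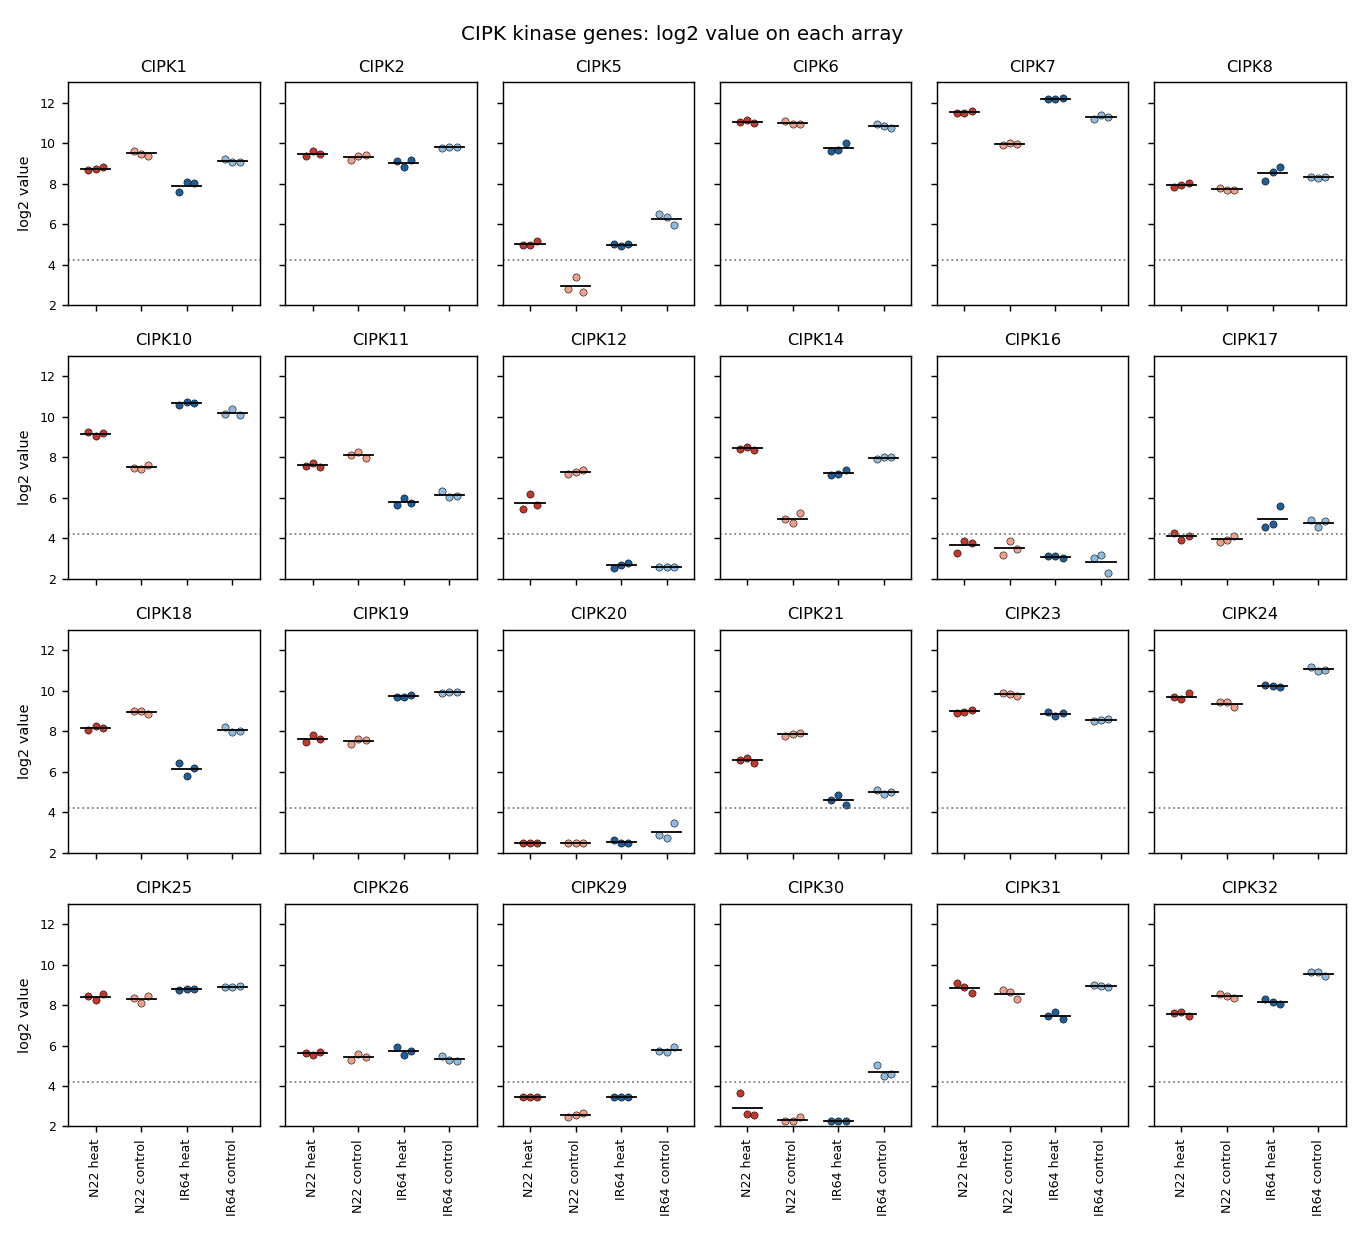
Log2 value of each CIPK gene on each array, by group from left to right N22 heat, N22 control, IR64 heat and IR64 control. Points are arrays (3 per group), black bars are group means and the dotted line is the background level of 4.20. CIPK14 stands near 5 in N22 control and above 7 in the other groups, and CIPK12 lies above background only in N22.

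CIPK14 (LOC4351307), which in rice acts with its close relative CIPK15 in immune signalling of cultured cells, had the largest rise. It measured 8.43, 8.53 and 8.39 in N22 heat, against 4.95, 4.75 and 5.24 in N22 control. In IR64 the values were 7.11, 7.18 and 7.39 in heat, against 7.93, 8.02 and 8.02 in control. The N22 control arrays were the lowest of all, and the N22 heat arrays were the highest. The change was 3.47 ± 0.12 in N22 (adjusted p = 5.94e-09) and -0.76 ± 0.12 in IR64 (adjusted p = 0.000251), a difference of 4.23 ± 0.16. Its single probe set can match several transcripts, and is paired with no other gene in the annotation. CIPK15 has no probe set of its own, and whether its transcripts add to the CIPK14 signal was not tested. In the same comparison within N22, the summed green tissue genes were 15.7 to 15.8 in heat and 13.7 to 13.8 in control, and their part was not tested.

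CIPK5 (LOC4327093) had opposite signs in the cultivars as well. It measured 4.96, 4.96 and 5.18 in N22 heat, against 2.81, 3.40 and 2.65 in N22 control, where all arrays lay at background. In IR64 it measured 5.00, 4.94 and 5.00 in heat, against 6.48, 6.33 and 5.95 in control. The rise in N22 was at least 1.78-fold, and the change in IR64 was -1.27 ± 0.19 (adjusted p = 0.000203). In heat the cultivars overlapped, with a difference of 0.06 ± 0.19 (adjusted p = 0.849).

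CIPK7 (LOC4333514), a kinase linked to cold tolerance in rice, and CIPK10 (LOC4332786) rose in both cultivars. CIPK7 measured 11.50, 11.48 and 11.60 in N22 heat, against 9.90, 10.01 and 9.96 in N22 control, a change of 1.57 ± 0.06. The IR64 arrays gave 12.15, 12.17 and 12.21 in heat, against 11.19, 11.37 and 11.29 in control, a change of 0.89 ± 0.06, which was 0.39 as the mean of its probe sets. The rise in N22 was larger by 0.67 ± 0.08 (adjusted p = 6.01e-05), and larger by 0.37 once each array was centred on its median.

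CIPK10 measured 9.23, 9.04 and 9.23 in N22 heat, against 7.46, 7.43 and 7.64 in N22 control, a change of 1.66 ± 0.10. Its IR64 values were 10.61, 10.76 and 10.68 in heat, against 10.13, 10.41 and 10.10 in control, a change of 0.47 ± 0.10. The N22 arrays were lower than the IR64 arrays in both conditions. CIPK10's rise in IR64 rests on the choice of probe set, described with the other genes that have several.

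CIPK24 (LOC4341477), known as SOS2, which with SOS3 controls sodium export, also moved in opposite directions. It measured 9.67, 9.60 and 9.87 in N22 heat, against 9.42, 9.44 and 9.20 in N22 control, a change of 0.36 ± 0.09. In IR64 the values were 10.29, 10.22 and 10.20 in heat, against 11.18, 10.98 and 11.01 in control, a change of -0.82 ± 0.09. The fall in IR64 was larger than the rise in N22, and the rise was not called with each array centred on its median (0.17, adjusted p = 0.103). CIPK24 remained lower in N22 than in IR64 in heat, by -0.53 ± 0.09.

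Several further CIPKs were lower in IR64 heat: CIPK29 (LOC4344285) and CIPK30 (LOC4325611), whose falls have only a lower limit because every IR64 heat array lay at background, and CIPK18 (LOC4338445), CIPK31 (LOC4332665) and CIPK32 (LOC4351419), measured above it throughout. CIPK29 measured 3.47 on every IR64 heat array, against 5.72, 5.69 and 5.92 in IR64 control, at least 2.97-fold lower. CIPK30 measured 2.29 on every IR64 heat array, against 5.02, 4.51 and 4.57 in IR64 control, at least 1.41-fold lower. Both stood above background in IR64 control alone. In N22, CIPK29 (3.47 on every heat array, 2.48 to 2.69 in control) and CIPK30 (2.55 to 3.65 in heat, 2.29 to 2.45 in control) lay at background, so the call of CIPK29 as higher in N22 heat gives no fold. Beside these falls, the 3' to 5' difference of GAPDH averaged 7.93 in IR64 heat and 4.79 in IR64 control, and its part in them was not tested.

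CIPK18 measured 8.08, 8.27 and 8.14 in N22 heat, against 8.98, 8.995 and 8.86 in N22 control, a change of -0.78 ± 0.15. In IR64 it measured 6.45, 5.78 and 6.16 in heat, against 8.19, 7.94 and 7.99 in control, a change of -1.91 ± 0.15. The fall was larger in IR64, and the difference of the heat effects was 1.13 ± 0.21 (adjusted p = 0.000898).

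CIPK31 has been tied in rice to germination and seedling growth under stress. In N22 its groups overlapped, at 9.10, 8.91 and 8.57 in heat and 8.76, 8.62 and 8.29 in control (0.30 ± 0.16, adjusted p = 0.135). In IR64 it measured 7.45, 7.66 and 7.30 in heat, against 8.99, 8.93 and 8.90 in control, a change of -1.47 ± 0.16, which was -0.84 as the mean of its probe sets. Both CIPK31 probe sets can match several transcripts. CIPK32 measured 7.60, 7.63 and 7.48 in N22 heat, against 8.55, 8.44 and 8.37 in N22 control. The IR64 arrays gave 8.31, 8.12 and 8.06 in heat, against 9.63, 9.62 and 9.41 in control. The fall of CIPK32 was -0.88 ± 0.09 in N22 and -1.39 ± 0.09 in IR64. The probe set behind these values can match several transcripts, and the other probe set of CIPK32 lay at background on all 12 arrays, so it could show no change.

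CIPK12 (LOC4325613), whose overexpression has been reported to raise drought tolerance of rice, was measured above background in N22 alone. It measured 5.46, 6.21 and 5.63 in N22 heat, against 7.17, 7.27 and 7.39 in N22 control, a change of -1.51 ± 0.16 (adjusted p = 2.09e-05). IR64 values lay between 2.56 and 2.80 in heat and at 2.57 in control. In the gene table CIPK12 lies next to CIPK30, which stood above background in IR64 control alone. CIPK12 was at least 8.40-fold higher in N22 control and at least 2.96-fold higher in N22 heat than in IR64.

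CIPK21 (LOC4344036) measured 6.60, 6.67 and 6.42 in N22 heat, against 7.77, 7.87 and 7.93 in N22 control, a change of -1.29 ± 0.12. Its IR64 values were 4.62, 4.83 and 4.36 in heat, against 5.12, 4.90 and 4.97 in control. The IR64 change of -0.39 ± 0.12 was called, but not under quantile normalization (-0.17, adjusted p = 0.289), with median centring (-0.28, adjusted p = 0.0977), in a fit of IR64 arrays alone, or without IR64 control replicate 1 or IR64 heat replicate 3.

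CIPK6 (LOC4345687) is given, like CIPK7 and CBL6, for its bright signal on every array. In N22 the groups overlapped, at 11.02, 11.15 and 10.98 in heat and 11.10, 10.92 and 10.93 in control. The IR64 arrays measured 9.62, 9.65 and 10.01 in heat, against 10.95, 10.85 and 10.74 in control. The change was 0.07 ± 0.11 in N22 (adjusted p = 0.686) and -1.08 ± 0.11 in IR64, and the heat effects differed by 1.15 ± 0.15 (adjusted p = 0.000103).

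CIPK1, CIPK2 and CIPK11 completed the called falls of IR64 that lay above background, with changes of -1.21 ± 0.13, -0.77 ± 0.10 and -0.35 ± 0.12. The CIPK11 call was lost under quantile normalization (-0.23, adjusted p = 0.108), with median centring (-0.24, adjusted p = 0.126), with no filter on low values (adjusted p = 0.0694) and in a fit of IR64 arrays alone (adjusted p = 0.0788). It was also lost without IR64 control replicate 1, IR64 heat replicate 1 or IR64 heat replicate 3. CIPK20 was called lower in IR64 too, with values of 2.48 to 2.61 in heat and 2.70 to 3.46 in control, all at background. CIPK26 was the remaining rise in IR64, at 0.40 ± 0.11, and CIPK16 and CIPK17, near or at background, were called in neither cultivar. Of the members above background on every array that were not called, CIPK19 changed by 0.11 ± 0.09, CIPK25 by 0.12 ± 0.09 and CIPK2 by 0.16 ± 0.10 in N22. In IR64, CIPK25 changed by -0.12 ± 0.09, CIPK19 by -0.20 ± 0.09 and CIPK8 by 0.21 ± 0.14.

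The heat effect in N22 minus that in IR64 was called for 21 of the 31 members (67.7%, against 65.7% of all genes), a share close to the background. Of these, 14 were positive (45.2%, against 35.5% of all genes) and 7 negative (22.6%, against 30.2%), and with each array centred on its median 12 were positive and 10 negative (26.8% and 45% of all genes). At a fold of at least 2 the count was 13 (31.7% of all genes). The CBLs held 2 positive and 4 negative differences, and the CIPKs 12 positive and 3 negative. The median difference was 0.44, beside 0.033 over all genes. In all, 7 members were called in both cultivars with opposite signs. CBL2, CBL3 and CIPK23 were lower in N22 heat and higher in IR64 heat (9.68% of members, against 9.09% of all genes). For CIPK23 this holds for its brighter probe set only. CIPK5, CIPK14, CIPK24 and CIPK29 were higher in N22 heat and lower in IR64 heat (12.9%, against 8.87%), CIPK29 with both N22 groups at background. Calls shared in direction comprised 2 rises (6.45%, against 12.3%) and 6 falls (19.4%, against 12.1%). A fall called in IR64 alone was found for 6 members (19.4%, against 12.5%).

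**Figure D3:**
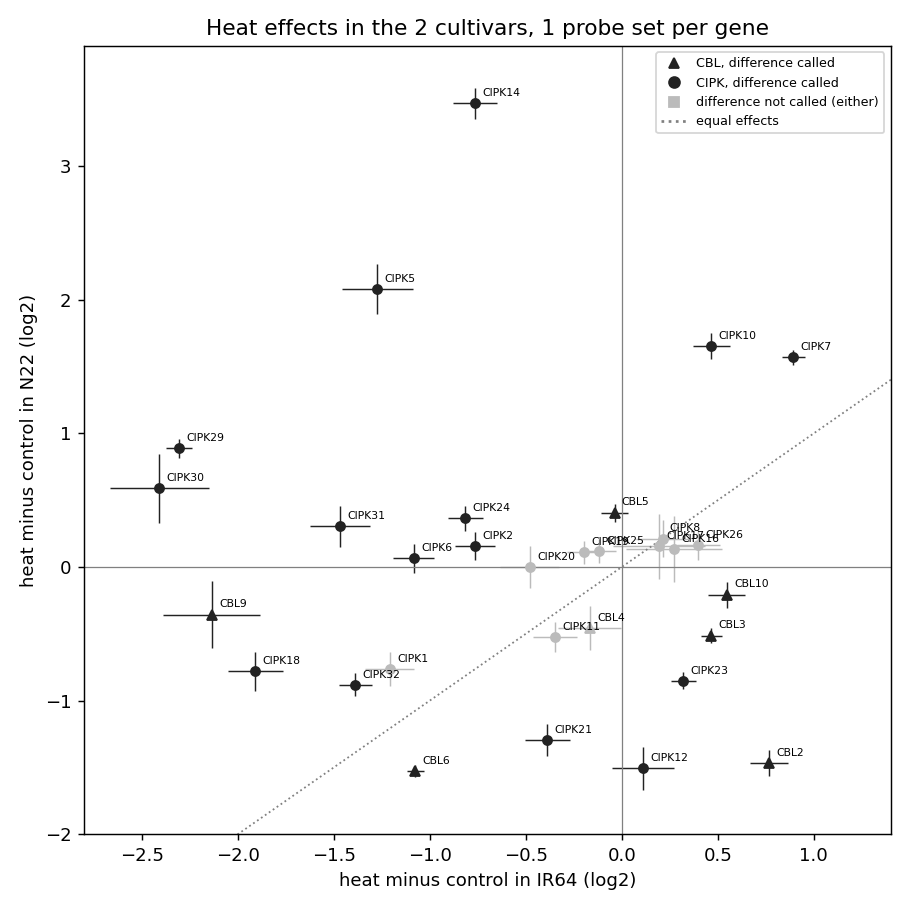
Heat effect (log2, heat minus control) in N22 on the vertical axis against that in IR64 on the horizontal axis, 1 point per gene, with bars of 1 SE. Triangles are CBL and circles CIPK genes, black where the difference of the effects was called, and the dotted line marks equal effects. CIPK14 lies highest, at 3.47 in N22 and -0.76 in IR64, and CBL2 lies at -1.47 in N22 and 0.77 in IR64.

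The cultivars differed in the open field at most members. In control, 28 of 31 were called (90.3%, against 81.4% of all genes), 12 higher (38.7%, against 39.3%) and 16 lower in N22 (51.6%, against 42.1%), with a median of -0.38 beside -0.025 over all genes. In heat, 23 were called (74.2%, against 74.4% of all genes), 12 higher (38.7%, against 34%) and 11 lower in N22 (35.5%, against 40.4%). At a fold of at least 2, the count was 17 in control (48.1% of all genes) and 11 in heat (35.1% of all genes). The groups did not overlap for 28 members in control (84.4% of all genes) and for 25 in heat (78.5% of all genes). Of 24 CIPKs, 15 were lower and 7 higher in N22 control, while of 7 CBLs 5 were higher and 1 lower.

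CIPK5, CIPK29 and CIPK30 lay at background in N22 control and above it in IR64 control, at least 4.14-fold, 2.97-fold and 1.41-fold lower in N22. CIPK14 differed by -3.01 ± 0.12 in control and by 1.22 ± 0.12 in heat, so that its order between cultivars turned over. CIPK18, at 0.91 ± 0.15 in control and 2.04 ± 0.15 in heat, was higher in N22 in both. CIPK21 was also higher in N22 in both conditions (2.86 ± 0.12 in control, 1.96 ± 0.12 in heat). CIPK11 (LOC107275263) measured 7.59, 7.70 and 7.53 in N22 heat, against 5.65, 5.98 and 5.76 in IR64 heat, a difference of 1.81 ± 0.12. The only CIPK11 probe set can match several transcripts. CIPK19 (LOC4339306) measured 7.46, 7.81 and 7.60 in N22 heat, against 9.71, 9.71 and 9.80 in IR64 heat, a difference of -2.12 ± 0.09. CIPK11 and CIPK19 thus stood apart by cultivar in opposite directions, with no overlap. Smaller differences that were not called were 0.11 ± 0.11 for CIPK26 and 0.14 ± 0.11 for CIPK6 in control.

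For 8 genes several probe sets were tested, and they did not all move alike. CIPK23 (LOC4342410), which in rice works with CBL1 to activate the potassium channel AKT1, had 2 probe sets that went against each other in N22. The brighter one measured 8.90, 8.96 and 9.06 in N22 heat, against 9.89, 9.85 and 9.74 in N22 control, a change of -0.85 ± 0.06. The other changed by 1.83 in the same arrays. In IR64 both were higher in heat, by 0.32 and by 0.40, with the brighter at 8.93, 8.77 and 8.89 in heat and 8.50, 8.53 and 8.60 in control. The opposite heat effects of CIPK23 therefore hold for 1 of its probe sets, and the mean of both gave 0.49 in N22. CIPK10 had 4 probe sets, of which 2 were called higher and none lower in N22 heat, while 2 were called higher and 1 lower in IR64 heat (-0.64 to 1.02). The mean of its probe sets gave 0.99998 in N22 and 0.30 in IR64 (adjusted p = 0.0627). The second probe set of CIPK7 was called higher in N22 heat (1.04) and not in IR64 (-0.11). The second probe set of CIPK2 was called lower in N22 heat (-0.20, adjusted p = 0.00380), where the brighter one was not called (0.16). CBL9 and CIPK12 gave the same signs in N22 for both of their probe sets, while for CIPK31 the fall in IR64 was called for 1 of 2.

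**Figure D4:**
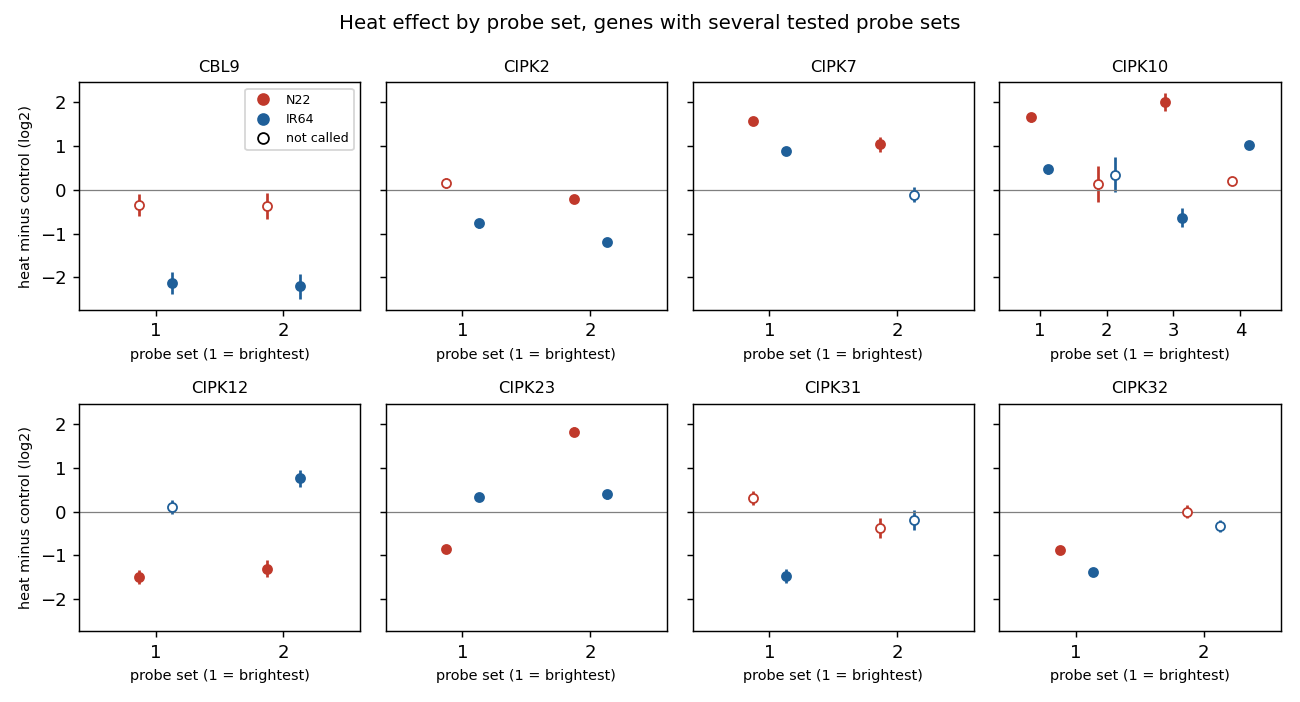
Heat effect (log2, heat minus control) of each tested probe set for the 8 genes with several, in N22 (red) and IR64 (blue), with bars of 1 SE. Filled points were called and open points were not, and probe set 1 is the brightest. The probe sets of CIPK23 lie at -0.85 and 1.83 in N22.

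Transporters and other proteins of families that CBL-CIPK pairs are known to act on, in rice or Arabidopsis, were matched by symbol. HKT and RBOH symbols were taken as whole ranges, so a listed gene need not itself be such a target. Of 16 genes found in the table, 9 had a tested probe set. No gene matched SOS1, AKT2, SLAC1 or an NHX symbol. In N22 heat 6 were called higher and 1 lower, and in IR64 heat 1 was called higher and 5 lower, against 29.6% higher and 33.5% lower over all genes in each. With each array centred on its median the IR64 count was 3 higher and 2 lower, against 35.8% higher and 28.3% lower over all genes. HAK1 (LOC4335729), a high-affinity potassium transporter, averaged 7.57 in N22 heat and 5.68 in N22 control, a change of 1.89 ± 0.07, and changed by -0.28 ± 0.07 in IR64. RBOHB (LOC4326027), an NADPH oxidase that makes reactive oxygen, rose by 1.998 ± 0.19 in N22. HKT8 (LOC4327757), a sodium transporter, measured 3.73, 4.41 and 4.18 in IR64 heat, where 1 array lay above background, against 6.08, 5.99 and 6.47 in IR64 control (-2.08 ± 0.18). Values at or under background have no order, so the size of this fall is uncertain. In control, all 9 differed between cultivars (81.4% of all genes), 8 of them lower in N22 (42.1% of all genes), with HAK1 at -2.89 ± 0.07 and AMT1-1, an ammonium transporter, at -3.65 ± 0.18.

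Among the other calcium decoders, lower calls outnumbered higher ones in IR64 heat, while the N22 counts changed with the scaling, as did the shares over all genes. Of 19 calcium-dependent protein kinases (CDPKs), which join sensor and kinase in 1 protein, 9 were called higher and 4 lower in N22 heat, and 2 higher and 14 lower in IR64 heat, against 29.6% higher and 33.5% lower over all genes in each. With each array centred on its median the N22 count was 6 higher and 6 lower (31.6% each, against 23.5% higher and 46.5% lower over all genes). CDPK29 (LOC4351829) was at least 3.33-fold lower in IR64 heat, and CDPK21 (LOC4346187) rose by 1.84 ± 0.11 in N22. Of 23 calmodulins and calmodulin-like proteins (CMLs), 9 were higher and 4 lower in N22 heat, and 1 higher and 15 lower in IR64 heat, beside the same shares over all genes. After centring, 8 were higher and 6 lower in N22 (34.8% and 26.1%, against 23.5% and 46.5% over all genes). CML1 (LOC4327351) rose by 2.50 ± 0.11 and CML15 (LOC4338633) by 2.37 ± 0.14 in N22, while CML10 (LOC4325762) changed by -1.22 ± 0.08 in IR64. The difference of the heat effects was positive for 14 and negative for 2 of the CDPKs, and positive for 15 and negative for 1 of the CMLs, against 35.5% positive and 30.2% negative over all genes. After centring these counts were 9 and 3 for the CDPKs and 12 and 3 for the CMLs, against 26.8% positive and 45% negative over all genes. CDPK23 (LOC4349249), a kinase known from developing rice seed, averaged 14.75 in N22 control and 7.18 in IR64 control, with the endosperm storage genes high in N22 alone. All of these lists are described by counts only, and none was tested as a set.

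Calcium channels, pumps and exchangers, of which 9 were tested, had 4 called higher and 3 lower in N22 heat and 3 higher and 2 lower in IR64 heat, against 29.6% higher and 33.5% lower over all genes in each. TPC1 (LOC4325272), a calcium-permeable channel, rose in both, by 1.43 ± 0.09 in N22 and by 1.77 ± 0.09 in IR64. CAX1A (LOC4324573), a vacuolar exchanger of calcium for protons, averaged 4.49 in IR64 heat and 7.47 in IR64 control, a change of -2.97 ± 0.18. Of 13 related SnRK kinases, the osmotic stress kinases named SAPK and the SnRK1 energy kinases, 6 were higher and 2 lower in N22 heat, and 6 higher and 6 lower in IR64 heat, beside the same shares over all genes. After centring, 2 of them were higher and 4 lower in N22 (15.4% and 30.8%, against 23.5% and 46.5% over all genes). SAPK9 (LOC4352660) rose by 2.36 ± 0.08 in IR64, and SAPK5 (LOC4337502) rose by 0.97 ± 0.08 in N22.

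**Figure D5:**
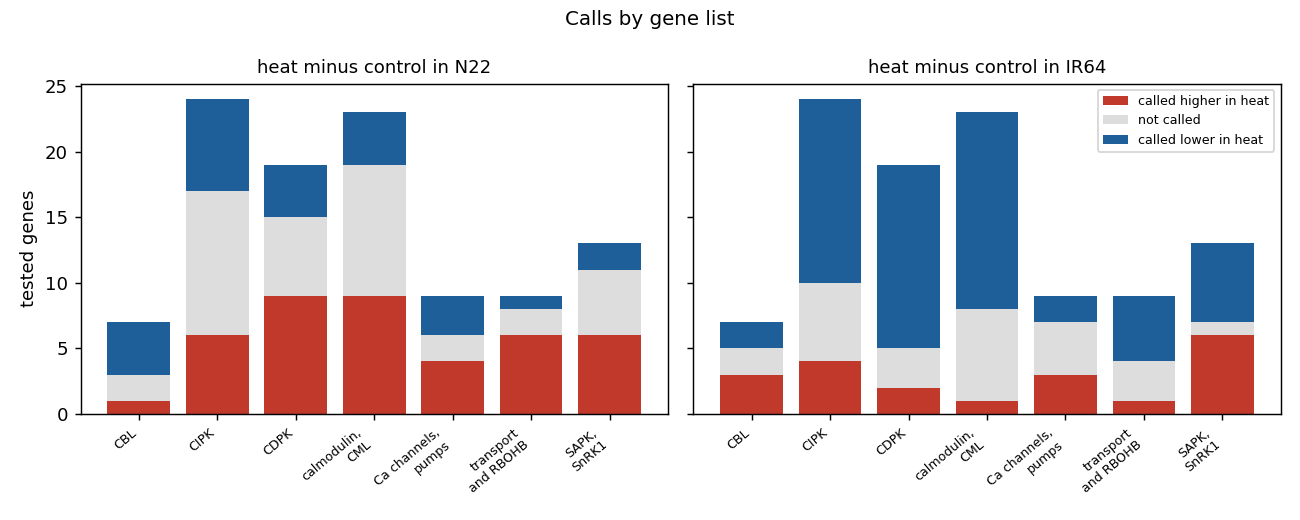
Number of tested genes called higher in heat (red), not called (grey) and called lower in heat (blue), for each gene list, in N22 on the left and IR64 on the right. The list named transport and RBOHB holds the 9 tested genes of families that CBL-CIPK pairs act on. Of the CDPKs, 9 were higher in N22 heat and 14 lower in IR64 heat.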

How the data were processed

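The authors deposited 1 table of log2 values for 57381 probe sets on 12 Affymetrix rice arrays, made with GCRMA per the submitters' processing notes, which models background from probe sequences and combines the probes of each set after normalisation between arrays. The sources used here give no GCRMA version. No detection calls or scanner files were used.

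Control (123) and reporter (64) probe sets were left out. A probe set was tested where it exceeded the table median of 2.35 on at least 3 arrays, which kept 29801. Group means were fitted with limma 3.58.1 in R 4.3.3 (lmFit, eBayes, 8 residual and 1.79 prior degrees of freedom) for 5 contrasts, two-sided, with Benjamini-Hochberg adjustment. The code was run on simulated arrays with independent normal noise and few changed probe sets. In these data most genes were called and low values were often tied, so that run does not measure the error rate of the calls. The brightest tested probe set stands for a gene. The number of arrays, 3 per group, limits the precision. Replicates correlated at 0.994 or more. Deviations of arrays that share a replicate number correlated at -0.05 to 0.10, so the numbers were not taken to pair samples.

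Per-array values are given for up to 6 members per contrast with the largest called change, for members called with opposite signs and for the 3 brightest members. Up to 4 uncalled members per contrast and up to 3 genes per comparison list are named. Members and lists were chosen with earlier results of these data known. Marker symbols TIP2, CP1, GS2 and MADS2 each matched 2 genes in the table, and all matches were kept. No coordinates are given, since the build of the array annotation is not stated.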

Additional observations from a re-analysis of the deposited data

Results flagged for a closer look

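The heat effect differed between N22 and IR64, by the interaction term of the limma fit, for 21 members. All differences are on the log2 scale, N22 minus IR64, with the SE of 3 arrays per group. The 4 largest positive ones were 4.23 ± 0.16 for CIPK14, 3.35 ± 0.26 for CIPK5, 3.19 ± 0.10 for CIPK29 and 2.997 ± 0.36 for CIPK30. Those of CIPK5, CIPK29 and CIPK30 involve groups at background, and with values raised to the background level they were 2.10, 1.57 and 0.50. CBL9, with tied values in N22, differed by 1.78 ± 0.36, CIPK31 by 1.77 ± 0.22 and CIPK10 by 1.19 ± 0.14. As the mean of their probe sets, CIPK31 gave 0.80 and CIPK10 0.70, and single probe sets ranged between -0.17 and 1.77 for CIPK31 and between -0.82 and 2.65 for CIPK10. Of the 4 probe sets of CIPK10, 2 were called positive and 1 negative. CIPK24 differed by 1.18 ± 0.13, CIPK6 by 1.15 ± 0.15 and CIPK18 by 1.13 ± 0.21. The smaller positive differences were 0.92 ± 0.15 for CIPK2, 0.67 ± 0.08 for CIPK7, 0.51 ± 0.12 for CIPK32 and 0.44 ± 0.10 for CBL5. Neither CIPK32 (0.20, adjusted p = 0.208) nor CBL5 (0.14, adjusted p = 0.258) was called with each array centred on its median.

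Among the negative differences, CBL2 stood at -2.23 ± 0.14, CIPK12 at -1.62 ± 0.23 and CIPK23 at -1.17 ± 0.09. The other probe set of CIPK23 gave a called difference of the opposite sign, 1.43 ± 0.15 (adjusted p = 1.52e-05). Both IR64 groups of CIPK12, and both of CBL5, lay at background, so the IR64 part of their differences could not be measured. CBL3 differed by -0.98 ± 0.08, CIPK21 by -0.91 ± 0.17, CBL10 by -0.75 ± 0.14 and CBL6 by -0.45 ± 0.06. The adjusted p of these 21 differences lay between 4.46e-09 for CIPK29 and 0.00535 for CIPK32. CIPK29 read 3.47 on every heat array of both cultivars, at background, so its SE and adjusted p include nearly tied values.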

How the results depend on the processing

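The counts of called CBL and CIPK genes stayed within 1.5 times their reported value under every alternative except a fold of at least 2. That threshold gave 8 in N22 heat, 10 in IR64 heat, 17 and 11 between cultivars in control and heat, and 13 for the difference of the heat effects. Leaving out 1 array at a time gave 17 to 19, 20 to 24, 24 to 28, 23 to 24 and 21 to 22 in the same order. With the replicate number as a block the counts were 20, 23, 28, 24 and 22. After median centring of each array, the median change of all probe sets was -0.20 in N22 heat and 0.11 in IR64 heat. It was 0.20 and -0.11 between cultivars in control and heat, and -0.31 for the difference. The members' median became -0.08 in N22 heat and -0.24 in IR64 heat, against 0.11 and -0.35 before centring. Under quantile normalization the members' median in IR64 heat was -0.17, beside 0.037 over all probe sets.

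Averaging the probe sets of a gene reversed 4 values: CIPK23 became 0.49 in N22 heat, -0.087 between cultivars in control and 0.13 for the difference, and CIPK31 became 0.0080 between cultivars in control. For each of these values the 2 probe sets of the gene had opposite signs. Those of CIPK23 gave -0.85 and 1.83 in N22 heat, 1.28 and -1.46 in control, and -1.17 and 1.43 for the difference. Those of CIPK31 gave -0.38 and 0.40 between cultivars in control. Why the probe sets differed was not tested. Of 113 called single-gene changes, 18 lost their call without reversing under at least 1 other alternative and 8 without at least 1 array, 19 in all. The reversed CIPK23 values in control (adjusted p = 0.324) and for the difference (adjusted p = 0.328) were not called either. They are not in these counts. Calls lost without 1 array were those of CBL4 in N22 heat, of CIPK11, CIPK20 and CIPK21 in IR64 heat, and of CBL4, CIPK1, CIPK16 and CIPK31 between cultivars in control. Without IR64 heat replicate 3, CIPK17 moved to -0.54 between cultivars in heat, against -0.86 with it. Values at or under 4.20 have no order, which limits CBL4, CIPK16 and CIPK20.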
